A study of Mus musculus with 10 samples.

Results

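The 39 protein-coding genes of the 4 mouse Hox clusters were described in interscapular brown adipose tissue (iBAT), a thermogenic depot that lies between the scapulae. They were taken by symbol and biotype (protein-coding records named Hoxa, Hoxb, Hoxc or Hoxd with a number) from a table of 54347 gene records. Of the 39 genes, 21 passed the filter on low counts, 9 had at least 1 count but stayed under it, and 9 were at 0 in all 10 mice. The mice were C57BL/6N animals aged 12 weeks, singly housed for 24 h at 4 °C, so both groups were cold-exposed and no warm-housed group entered. In 5 of them (ΔGm15551, replicates 1, 2, 4, 5 and 7) a CRISPR/Cas9 germline deletion took out exon 1 of the lncRNA gene Gm15551, and 5 were wild type mice (replicates 2, 3, 5, 6 and 7). The knock-out had been backcrossed to wild type, and poly A RNA of the whole depot was sequenced, so the cells that carried each transcript were not resolved.

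Hox genes encode homeodomain transcription factors that give cells along the body axis their positional identity. Each cluster is a row of genes in which the 3′ end (paralog group 1) is switched on early and anteriorly in the embryo and the 5′ end (group 13) late and posteriorly, and genes with the same number in different clusters are paralogs. Adult connective and adipose tissues keep part of the pattern of the place where they formed, and fat depots of the trunk are known to differ in it.

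The total count per mouse was 9680976 to 15771170, and Hox genes took 22259 of 130040988 counts, or 0.0149% to 0.0193% per library. A count of 0 allows up to 3 counts, which is 0.19 to 0.31 CPM (counts scaled to a common library size) in a single library and 0.0231 CPM over all 10, and this floor covers counting error only. Gm15551 had 0 counts in all 5 ΔGm15551 mice and 0 to 7 in wild type, with a count in 4 of 5. The 10 brown adipocyte markers fixed for the tissue, among them Ucp1 and Cidea, were counted in every mouse and summed to 11340 to 15510 CPM in ΔGm15551 and 11380 to 14260 CPM in wild type. Skeletal muscle genes took over 0.01% of the counts in 4 libraries (ΔGm15551 replicates 1 and 4, wild type replicates 5 and 7), with the largest share, 0.296%, in wild type replicate 7, which was also the shallowest library. Of the 10 muscle genes listed, 4 were counted in every mouse and none was called between genotypes.

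The Hox genes expressed in the depot were those of the 3′ and middle parts of the clusters, and the 5′ parts were silent or nearly so. Levels are given as CPM per kb of the longest annotated coding transcript, so that genes can be set beside each other. Paralog groups 4 to 6 held 67.8% ± 3.599 (SD, n = 10) of the summed Hox level, groups 7 to 9 held 18.8% ± 3.11 and groups 1 to 3 held 13.4% ± 2.62. Among the 27 genes of groups 1 to 9, 21 passed the filter. Among the 12 genes of groups 10 to 13 none did, 8 were at 0 in every mouse, and the other 4 had 5 counts in total over 130040988 (exact Poisson interval at 95%, 1.62 to 11.7). Fewer cells of a type and less RNA per cell cannot be told apart in these whole-tissue libraries.

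**Figure D1:**
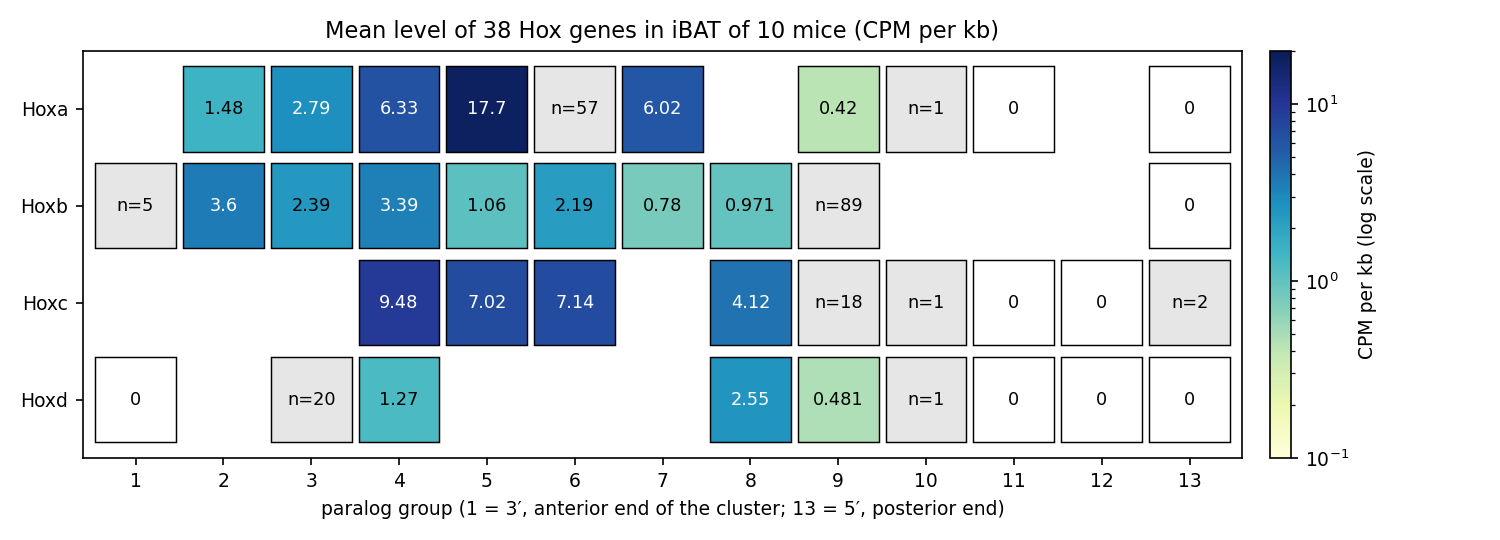
Mean level (CPM per kb, colour on a log scale) of 38 Hox genes over 10 mice, with clusters as rows and paralog groups 1 to 13 as columns; grey boxes give the total count of genes under the filter, white boxes mark genes at 0 in all mice, and positions without a gene drawn are blank. The coloured boxes lie within groups 1 to 9 and the white ones lie in groups 11 to 13 apart from Hoxd1, with Hoxa5 at 17.7 as the darkest.

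Among single paralog groups, groups 4 and 5 had the largest shares. Group 5 held 31.15% ± 1.87 of the summed level (SD, n = 10) and group 4 held 24.8% ± 2.18. Group 6 followed with 11.9% ± 1.61, group 8 with 9.12% ± 2.10, group 7 with 8.20% ± 1.27, group 3 with 6.34% ± 1.06 and group 2 with 6.17% ± 1.51. Group 9 held 1.48% ± 0.347. In group 1, whose genes pattern the hindbrain, Hoxb1 had 5 counts over all mice and Hoxd1 had 0.

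Clusters a and c gave most of the Hox RNA. Hoxa (chr6:52155590-52260880, GRCm38) held 43.4% ± 2.81 of the summed level (SD, n = 10) with 7 of 11 genes past the filter, and Hoxc (chr15:102921103-103036852) held 33.6% ± 5.33 with 4 of 9. Hoxb (chr11:96194316-96368256) held 17.7% ± 2.999 with 7 of 10, and Hoxd (chr2:74668310-74765142) held 5.27% ± 1.01 with 3 of 9. Hoxa exceeded Hoxb in 10 of 10 mice and Hoxc in 9 of 10, Hoxc exceeded Hoxb in 10 of 10, and each of the other clusters exceeded Hoxd in 10 of 10. The order of Hoxa and Hoxc depended on the length used, since per kb of coding length Hoxa held 38.0% and Hoxc 38.3%. The share of Hoxc varied most in percentage points, from 24.5% in wild type replicate 7 to 42.7% in wild type replicate 3, while Hoxd, from 3.81% to 6.93%, had a wider range relative to its mean. In ΔGm15551 the Hoxa share was 43.8% ± 3.32 and the Hoxc share 32.2% ± 3.92 (SD, n = 5), and in wild type they were 43.1% ± 2.53 and 34.9% ± 6.65, differences smaller than the spread between mice.

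**Figure D2:**
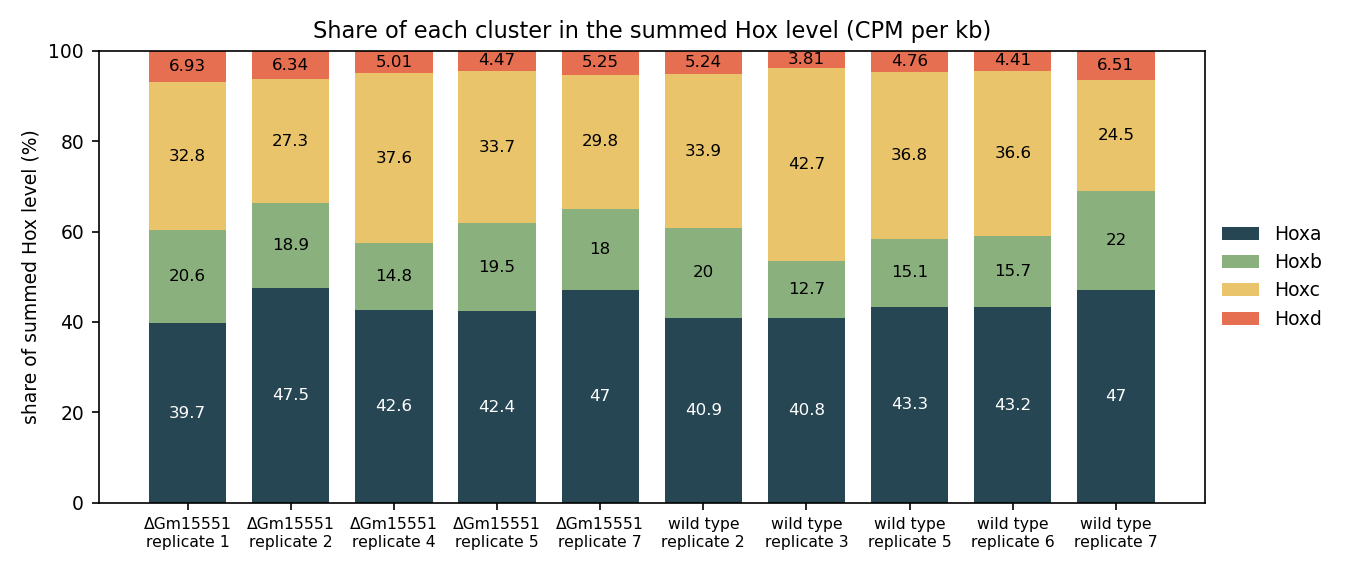
Share of each cluster in the summed Hox level (%, from CPM per kb) in each of the 10 mice, as stacked bars. Hoxa held 39.7% to 47.5%, and the Hoxc segment is smallest in wild type replicate 7 and largest in wild type replicate 3.

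Per kb of transcript the highest gene was Hoxa5 in Hoxa, Hoxc4 in Hoxc and Hoxb2 in Hoxb. Hoxb2 lay above Hoxb4 in 5 of 10 mice with overlapping ranges, and in CPM without division by length Hoxb4 (8.69) and Hoxb3 (7.63) exceeded Hoxb2 (5.86), and Hoxc5 (20.5) exceeded Hoxc4 (20.1). In Hoxd the highest gene was Hoxd8, and at the 3′ end Hoxd1 had 0 counts and Hoxd3 had 20. Hoxa5, a paralog group 5 gene that patterns the neck, chest and lung, was the most abundant Hox transcript at 17.7 ± 2.08 CPM per kb (SD, n = 10). Hoxc4 followed with 9.48 ± 1.52, Hoxc6 with 7.14 ± 1.60, Hoxc5 with 7.02 ± 1.72, Hoxa4 with 6.33 ± 1.16 and Hoxa7 with 6.02 ± 1.11. These 6 genes, which mark cervical and upper thoracic levels in the embryo, held 64.8% of the summed level. Hoxa5 lay above Hoxc4 in every mouse without overlap of their ranges, and it was 42.2-fold above Hoxa9, the lowest gene past the filter. Of the 20 neighbouring pairs in the order of the 21 genes, the other 19 overlapped in range, and Hoxc6, Hoxc5, Hoxa4 and Hoxa7 did not differ beyond their spread (the upper of each pair was higher in 5 or 6 of 10 mice).

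**Figure D3:**
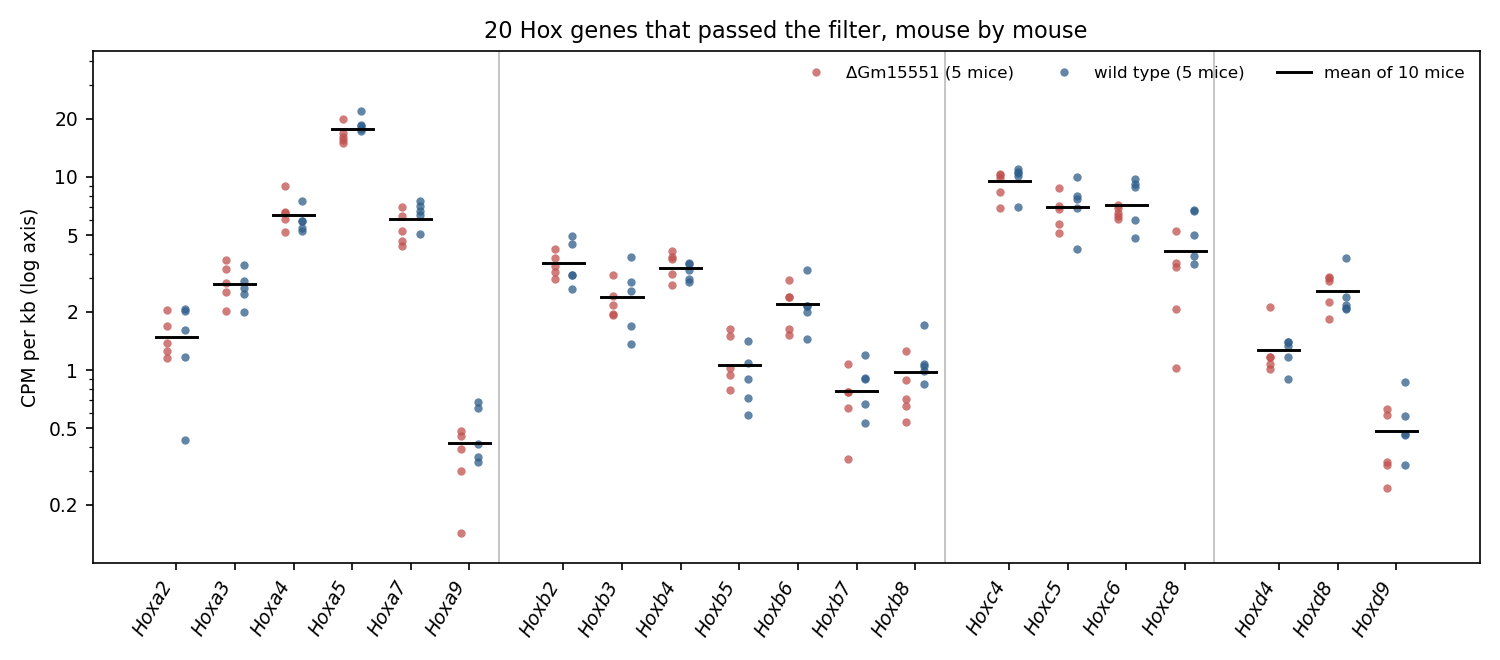
Level (CPM per kb, log axis) of 20 of the Hox genes past the filter in each mouse, ordered by cluster and paralog group; points are mice (5 of each genotype) and bars are means of 10. The Hoxa levels climb from Hoxa2 to Hoxa5 and drop to Hoxa9, and points of both genotypes overlap for every gene drawn.

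Per mouse, in CPM without division by length, Hoxa5 was 30.2, 29.1, 31.9, 28.2 and 37.4 in ΔGm15551 (replicates 1, 2, 4, 5 and 7) and 32.4, 34.9, 34.3, 33.1 and 41.1 in wild type (replicates 2, 3, 5, 6 and 7). Hoxc4 was 21.1, 14.6, 22.03, 17.6 and 21.6 CPM in ΔGm15551 and 23.2, 22.4, 21.5, 22.1 and 14.8 CPM in wild type. Wild type replicate 7 was thus the highest mouse for Hoxa5 and, after ΔGm15551 replicate 2, the lowest for Hoxc4. Hoxc5 was 16.7, 14.9, 25.7, 20.6 and 19.99 CPM in ΔGm15551 and 20.2, 29.3, 23.3, 22.5 and 12.3 CPM in wild type. Hoxc6 was 10.3, 9.88, 11.3, 11.0 and 9.55 CPM in ΔGm15551 and 9.40, 15.3, 14.5, 14 and 7.60 CPM in wild type. Wild type replicate 7 was the lowest mouse for both, and wild type replicate 3 the highest. Hoxa4 was 9.61, 10.5, 10.4, 8.28 and 14.3 CPM in ΔGm15551 and 8.69, 9.42, 9.37, 8.40 and 11.9 CPM in wild type, so that replicate 7 of each group was the highest mouse of that group. Hoxa7, a gene of the thoracic level, was 12.6, 9.31, 10.6, 14.1 and 8.80 CPM in ΔGm15551 and 10.1, 12.8, 13.3, 15.04 and 14.3 CPM in wild type.

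Across all 21 genes, wild type replicate 7 was the highest mouse for 10 genes and the lowest for 2, Hoxc5 and Hoxc6, while wild type replicate 3 was the lowest for 6. Beside this, replicate 7 held the most muscle RNA of the wild type mice (0.296% of counts), but also, of the 5 wild type mice, the highest summed levels of endothelial (1376 CPM, others 808.3 to 1200), Schwann (132.4, others 64.65 to 110.2), mural (537.3, others 436.1 to 512) and macrophage and lymphocyte markers (25.16, others 16.6 to 21.58). It had the lowest brown adipocyte (11380 CPM, others 13400 to 14260) and white adipocyte markers (193.3, others 240.3 to 437.8), while fibroblast and preadipocyte markers were highest in replicate 2 (529 CPM, with 363.7 in replicate 7 and 284.1 to 314.9 in the other 3), and the part of any of these in its Hox levels was not tested. ΔGm15551 replicate 1, also rich in muscle genes, had the highest endothelial sum (1480 CPM) of all 10 mice. Its macrophage and lymphocyte sum (25.97) was also the highest and its brown adipocyte sum (11340) the lowest. This mouse was the highest for 2 of the 21 genes and the lowest for 0. Without the 4 libraries rich in muscle genes the Hoxa share was 43.6% and the Hoxc share 34.0%, and the same 6 genes led. Of the 21 genes, 7 varied less than 2-fold between the highest and the lowest mouse. Hoxc8 varied most, 6.56-fold, followed by Hoxa9 with 4.81-fold and Hoxa2 with 4.80-fold. The SD of log2 CPM over the 10 mice had a median of 0.369 over the Hox genes, against 0.265 over all 13732 genes tested. These medians were not matched for level. The SD was 0.164 for Hoxa5, with 362 to 508 counts per mouse, and 0.548 for Hoxa9, with 6 to 34. For Hoxc8, with 27 to 147 counts, it was 0.792.

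Of the 17 pairs of paralogs past the filter, 12 differed in level without overlap of their ranges over the 10 mice and 5 overlapped. In group 5, Hoxa5 exceeded Hoxc5 by a median of 2.40-fold and Hoxb5 by 18.2-fold, and in group 7, Hoxa7 exceeded Hoxb7 by 7.57-fold, each in 10 of 10 mice without overlap of the ranges. In group 4, which acts at the border of hindbrain and neck, Hoxc4 exceeded Hoxb4 by 2.76-fold and Hoxd4 by 7.75-fold in 10 of 10 mice, and Hoxa4 by 1.62-fold in 9 of 10, the last with overlapping ranges. In group 6, Hoxc6 exceeded Hoxb6 by 3.51-fold in 10 of 10 mice, and Hoxa6 stayed under the filter with 57 counts. In group 2, which controls the hindbrain and pharyngeal arches, Hoxb2 exceeded Hoxa2 by 2.37-fold in 10 of 10 mice. Hoxa3 and Hoxb3 (1.42-fold, 7 of 10), Hoxc8 and Hoxd8 (1.75-fold, 8 of 10), Hoxc8 and Hoxb8 (4.26-fold, 10 of 10) and Hoxd9 and Hoxa9 (1.30-fold, 6 of 10) also overlapped. Hoxb2 was 5.65, 6.89, 5.21, 4.83 and 6.19 CPM in ΔGm15551 and 7.34, 4.28, 5.08, 5.08 and 8.01 CPM in wild type, and its groups overlapped.

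Some of these values rest on shared sequence. Of the 31-base words in Hoxd3 and Hoxd4, 61.1% and 49.1% also occur in other genes, mainly Gm28230, a read-through record of both, which had 6 to 24 counts per mouse. Hoxa2 and Hoxa3 share 13.7% and 8.24% of their words, mainly with Gm28308, and Hoxc5 and Hoxc10 share 4.55% and 7.34% through a common exon. Their levels are therefore less certain than those of Hoxa5 or Hoxc4, which share 0.108% and 0.234%. Exons of antisense genes overlap 2250 bases of Hoxb3, 953 of Hoxb2, 1529 of Hoxa3, 368 of Hoxd3, 347 of Hoxd4 and 100 of Hoxb5, and also 586 of Hoxa7 and 255 of Hoxa4, which are among the 6 leading genes. Whether strand was used in counting is not stated, and without it such reads could not be told apart.

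The last gene past the filter and its 5′ neighbour were compared in each cluster. Levels were already low before this step in Hoxa (Hoxa7 at 6.02 and Hoxa9 at 0.42 CPM per kb) and in Hoxd (Hoxd8 at 2.55 and Hoxd9 at 0.481). In Hoxa, Hoxa9 had 177 counts over 10 mice and Hoxa10, whose annotated start lies 9.8 kb away, had 1. In Hoxd, Hoxd9 had 131 counts and Hoxd10, 5.8 kb away, had 1. In Hoxc, Hoxc8 had 972 counts and Hoxc9, 14.2 kb away, had 18. Per kb the ratio of the pooled counts was 141 for Hoxa9 over Hoxa10 (exact 95% interval for counting error, 24.9 to 5590), 111 for Hoxd9 over Hoxd10 (19.6 to 4430) and 68.6 for Hoxc8 over Hoxc9 (43.2 to 116). Hoxb8 with 322 counts lay 3.53-fold above Hoxb9 with 89 (2.79 to 4.52), and Hoxb9, at 0.273 CPM per kb not far under Hoxa9 and Hoxd9, was counted in all 10 mice at 4 to 17 counts. It passed the filter when any of 6 mice was left out, and its 5′ neighbour Hoxb13 was at 0. The filter on these same counts chose each pair, so these ratios are a description.

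Genes 5′ of the last one past the filter are known for posterior roles. Hoxc9 and Hoxc10 are typical of inguinal white fat and hindlimb levels, Hoxa10 patterns the uterus and lumbar spine, and the group 13 genes pattern digits, genitalia and tail. Hoxc9 had 0 to 6 counts per mouse. The 1 count of Hoxc10 fell in ΔGm15551 replicate 1, together with that of Hoxd10, and the 1 count of Hoxa10 in wild type replicate 7. Hoxc13 had 1 count each in wild type replicates 2 and 7. Hoxa11, Hoxa13, Hoxb13, Hoxc11, Hoxc12, Hoxd11, Hoxd12 and Hoxd13 were at 0 in every mouse, which allows up to 0.0231 CPM over the 10 libraries. The last genes past the filter were low in Hoxa and Hoxd: Hoxa9 was 1.47, 1.56, 1.26, 0.46 and 0.97 CPM in ΔGm15551 and 1.08, 2.06, 1.145, 2.21 and 1.34 CPM in wild type. Hoxd9 was 1.25, 0.71, 1.34, 0.69 and 0.52 CPM in ΔGm15551 and 0.985, 0.69, 1.001, 1.24 and 1.85 CPM in wild type, again with overlapping groups. Hoxd8, the next gene towards the 3′ end, was 7.92, 7.60, 5.95, 4.83 and 7.98 CPM in ΔGm15551 and 6.27, 5.48, 5.72, 5.53 and 9.96 CPM in wild type.

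The promoters on both sides of this step are shown for Hoxd9 and Hoxd10, the closest expressed and silent neighbours, beside that of Hoxa5, the most abundant gene. Each window runs from 250 bases before to 50 after the annotated start (RefSeq, GRCm38.p6), 5′ to 3′ on the gene's strand, with CpG dinucleotides in capitals. Hoxa5 lies at chr6:52204538-52204837 on the minus strand, Hoxd9 at chr2:74697513-74697812 and Hoxd10 at chr2:74691641-74691940, both on the plus strand.
Hoxa5: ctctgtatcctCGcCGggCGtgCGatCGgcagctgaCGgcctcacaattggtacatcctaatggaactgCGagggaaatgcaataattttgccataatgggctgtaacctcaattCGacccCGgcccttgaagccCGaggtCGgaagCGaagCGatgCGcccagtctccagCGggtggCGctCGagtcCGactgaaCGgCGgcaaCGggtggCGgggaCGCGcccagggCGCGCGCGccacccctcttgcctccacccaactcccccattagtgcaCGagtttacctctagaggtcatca
Hoxd9: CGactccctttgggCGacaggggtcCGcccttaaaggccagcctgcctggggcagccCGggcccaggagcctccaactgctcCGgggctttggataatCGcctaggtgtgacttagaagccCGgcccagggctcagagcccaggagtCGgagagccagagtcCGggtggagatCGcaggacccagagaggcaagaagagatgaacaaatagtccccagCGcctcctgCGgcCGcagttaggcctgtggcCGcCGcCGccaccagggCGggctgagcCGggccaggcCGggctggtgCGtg
Hoxd10: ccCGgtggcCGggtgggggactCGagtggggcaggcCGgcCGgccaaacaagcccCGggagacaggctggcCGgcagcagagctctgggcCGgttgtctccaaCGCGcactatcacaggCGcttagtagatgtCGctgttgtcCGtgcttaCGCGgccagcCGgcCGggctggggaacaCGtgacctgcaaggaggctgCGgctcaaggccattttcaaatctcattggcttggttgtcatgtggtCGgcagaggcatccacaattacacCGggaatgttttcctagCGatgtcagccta
The silent Hoxd10 held 22 CpG in its window, the expressed Hoxd9 20 and Hoxa5 29. RefSeq windows were matched for 22 of the 39 genes (24 windows), and 20 of the 24 held more CpG than the median of 7 over 32851 windows of all genes. The median was 9 CpG in the 11 windows of genes past the filter and 21 in the 13 windows of genes under it or at 0, with ranges of 4 to 29 and 4 to 45. On either strand, the Pbx-Hox site TGATNNAT occurred in 4 of the 24 windows (Hoxa2, Hoxb1, Hoxb8 and Hoxd11) against 8.85% of all windows, the Meis site TGACAG in 2 (Hoxa2 and Hoxa3) against 19.2%, and the TATA box TATAAA in 4 (Hoxa10, Hoxb8, Hoxd4 and Hoxd13) against 13.62%. The first and second can overlap by a few bases, and a match is a description of letters only.

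The clusters also encode microRNAs that target Hox transcripts, and their mature forms are not measured by poly A sequencing. The gene records of Mir10a, Mir10b, Mir196a-1, Mir196a-2, Mir196b and Mir615 were at 0 in all 10 mice. They fall into 3 seed families, shown here with the seed in capitals (bases 2 to 8, RefSeq). Of the miR-196 genes, Mir196b lies within Hoxa9 beside Hoxa10, Mir196a-1 between Hoxb13 and Hoxb9, and Mir196a-2 between Hoxc10 and Hoxc9.
mmu-miR-10a-5p: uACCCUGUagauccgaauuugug
mmu-miR-10b-5p: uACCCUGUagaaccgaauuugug
mmu-miR-196a-5p: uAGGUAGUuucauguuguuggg
mmu-miR-196b-5p: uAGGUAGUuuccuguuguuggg
mmu-miR-615-3p: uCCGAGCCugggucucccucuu
The match to the miR-196 seed, ACTACCT, occurred in the longest coding transcripts of 11 Hox genes, against 15.9% of 21901 coding genes. That of the miR-10 seed, ACAGGGT, occurred in 7 Hox genes against 18.9%, and that of the miR-615 seed, GGCTCGG, in 7 against 13.4%. Hoxb8, the known target that miR-196a cleaves, holds a nearly complete complement at bases 2208 to 2229 of its transcript, shown with paired bases in capitals.
Hoxb8 site of miR-196a: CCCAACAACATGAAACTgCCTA
Of 22 bases 21 pair, and with the G:U wobble all 22, which 2 of 21901 coding transcripts reach. Hoxb8 RNA was present in every mouse, at 2.35, 1.42, 1.71, 3.30 and 1.86 CPM in ΔGm15551 and 2.78, 2.83, 2.22, 2.60 and 4.52 CPM in wild type. Its mean of 0.971 CPM per kb was the lowest of the 3 genes in group 8, below Hoxd8 by a median of 2.42-fold and below Hoxc8 by 4.26-fold, each in 10 of 10 mice. The miR-196 seed match was absent from Hoxd8 but present in Hoxc8, and also in Hoxa4, Hoxa5 and Hoxa7, which are among the leading genes. Any part of the microRNA in these levels was not tested.

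Whether deletion of Gm15551 altered the positional pattern was asked with edgeR's quasi-likelihood test over all genes. At an adjusted p under 0.05, 0 of the 21 Hox genes tested were called, against 0% of all 13732 genes, and no adjusted p in this fit lay below 0.99981. The smallest adjusted p over all genes was 0.0615 in the DESeq2 Wald test. In the edgeR fit without ΔGm15551 replicate 7 it was 0.5935. Without adjustment, 1 Hox gene (Hoxc8) had a p under 0.05, against 1.59% of all genes (0.634% in the lower direction), and the DESeq2 Wald test and limma-voom also gave 1 Hox gene each. With 1 mouse left out at a time this count was 0 without ΔGm15551 replicate 2 or 4 or wild type replicate 3 or 6, 2 without ΔGm15551 replicate 5 (Hoxa7 and Hoxb8) and 1 otherwise, and that gene was Hoxa5 without ΔGm15551 replicate 7 and Hoxc6 without wild type replicate 7. None of the 21 separated the groups without overlap, against 0.32% of all genes. The log2 fold change (log2FC, ΔGm15551 over wild type) of the 21 genes had a median of -0.10 with 14 lower and 7 higher, against a median of -0.00087 and 50.3% lower over all genes. For 17 of the 21 the 95% confidence interval lay within a 2-fold change in either direction.

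**Figure D4:**
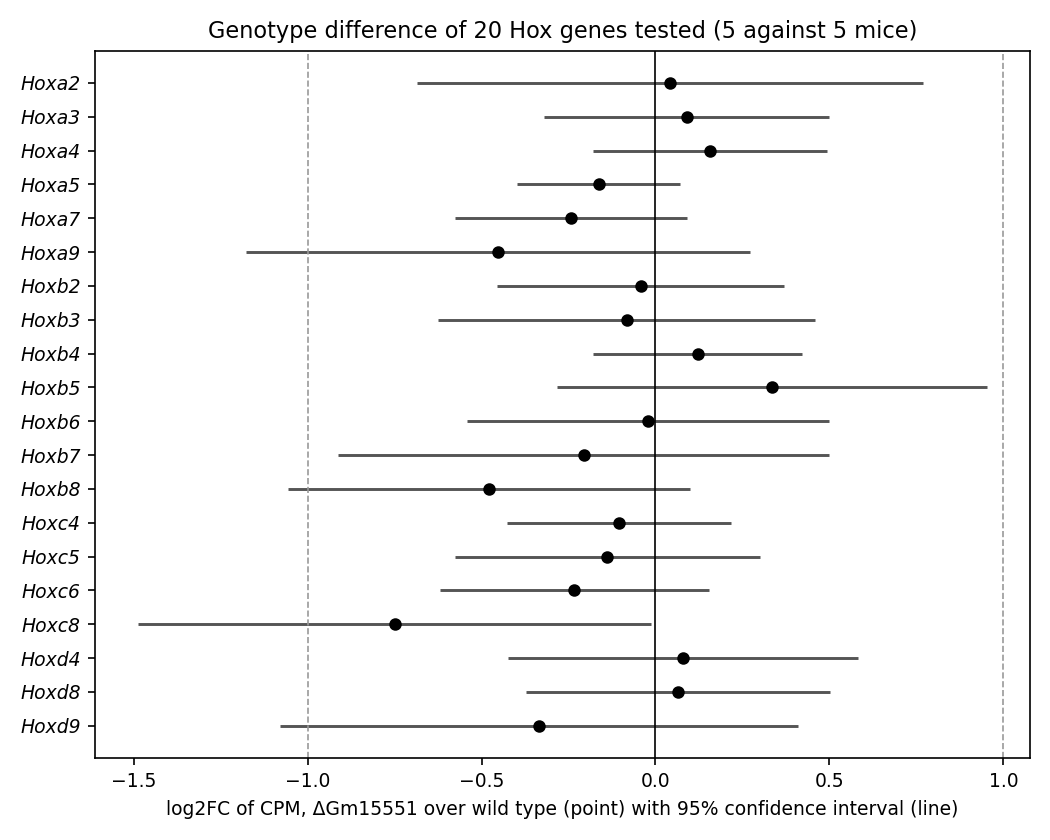
log2FC of 20 of the Hox genes tested (point) with its 95% confidence interval (line), ΔGm15551 over wild type, 5 mice in each group; dashed lines mark a 2-fold change. The interval of Hoxc8 (-1.49 to -0.012) is the one that leaves out 0, and those of Hoxc8, Hoxb8, Hoxa9 and Hoxd9 reach beyond the dashed line for a 2-fold lower level.

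Hoxc8, a thoracic gene that is higher in white than in brown precursor cells and is known to restrain brown fat genes, had the log2FC farthest from 0 of the 21 Hox genes past the filter. It was 9.76, 1.92, 6.40, 6.67 and 3.88 CPM in ΔGm15551 and 6.63, 12.6, 7.30, 9.31 and 12.4 CPM in wild type. Of the ΔGm15551 mice, 3 lay below every wild type mouse, and replicate 1 lay above 3 wild type mice. The means were 5.73 ± 2.98 and 9.65 ± 2.79 CPM (SD, n = 5). In ΔGm15551, the lowest mice for Hoxc8 (replicates 2 and 7) had the highest brown adipocyte sums (15510 CPM each). The highest mouse (replicate 1) had the lowest sum (11340). In wild type the sum was 14260 CPM in the lowest mouse (replicate 2) and 13980 in the highest (replicate 3). The part of cell types in the Hoxc8 values was not tested. The log2FC was -0.75 ± 0.34 (SE) in edgeR's quasi-likelihood test, with a p of 0.0468 before and 0.99981 after Benjamini-Hochberg adjustment, so that the gene was not called. Leaving out 1 mouse at a time moved the log2FC between -1.03 (without ΔGm15551 replicate 1) and -0.53 (without ΔGm15551 replicate 2) and the unadjusted p between 0.00867 and 0.113, and without the 4 muscle-rich libraries the log2FC was -1.20. Its 3′ neighbours did not share its order in every mouse: wild type replicate 7 ranked 2 of 10 for Hoxc8, 9 for Hoxc4 and 10 for Hoxc5 and Hoxc6, whereas ΔGm15551 replicate 2 ranked 10 for Hoxc8 and Hoxc4, 9 for Hoxc5 and 7 for Hoxc6.

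**Figure D5:**
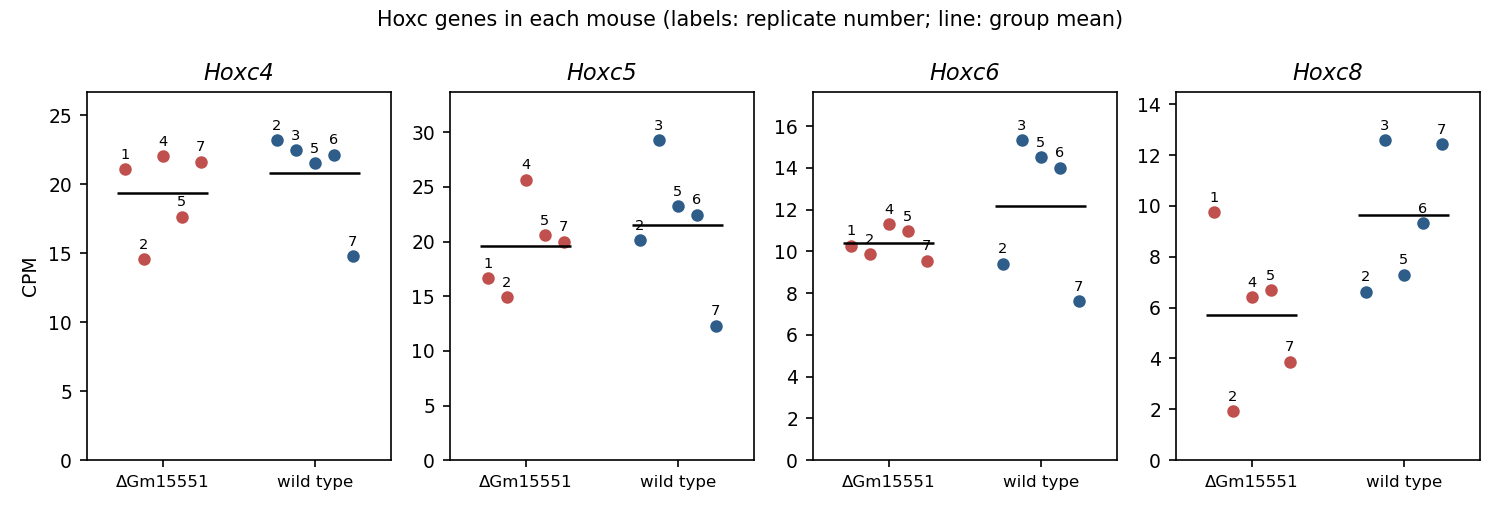
CPM of Hoxc4, Hoxc5, Hoxc6 and Hoxc8 in each mouse (axes start at 0), with replicate numbers at the points and lines at group means. Wild type replicate 7 is low for Hoxc4, Hoxc5 and Hoxc6 and high for Hoxc8 (12.4 CPM), and ΔGm15551 replicate 2 is the lowest mouse for Hoxc8 (1.92 CPM).

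The highest gene of each cluster per kb of transcript had a smaller standard error than Hoxc8. The log2FC was -0.16 ± 0.11 (SE) for Hoxa5, -0.10 ± 0.15 for Hoxc4, -0.04 ± 0.19 for Hoxb2 and 0.06 ± 0.20 for Hoxd8, each at an adjusted p of 0.99981 (edgeR). Hoxb8, second by p-value among the Hox genes, had a log2FC of -0.48 ± 0.27 (interval -1.06 to 0.099), Hoxa9 of -0.45 ± 0.34 and Hoxd9 of -0.34 ± 0.34. Among the genes under the filter, which were named after their values were seen, Hoxd3 had 3, 4, 3, 4 and 4 counts in ΔGm15551 and 2, 0, 0, 0 and 0 in wild type. The groups of Hoxd3 did not overlap, against 0.274% of the 30984 genes with a count. The ratio was 8.25 (exact 95% interval for counting error, 1.97 to 73.3). In the edgeR fit without a filter, Hoxd3 and Hoxa6 were under an unadjusted 0.05, against 2.8% of all genes, and both had an adjusted p of 0.8351. Hoxa6 had 19 counts in ΔGm15551 and 38 in wild type, and Hoxc9 had 15 and 3. The read-through record Gm28230, with which Hoxd3 shares most of its sequence, had a log2FC of 0.57 ± 0.34.

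Hox proteins bind DNA with cofactors of the TALE class, and these were expressed broadly. Of 11 TALE genes, 9 passed the filter, 0 were called (edgeR) and 1 had an unadjusted p under 0.05, against 1.59% of all genes. Leaving out single mice gave 0 to 2, with 0 without ΔGm15551 replicate 5 or without wild type replicate 3, 6 or 7, and 2 without wild type replicate 2. Pbx2, a partner that stabilises Hox binding, was the highest at 13.1 ± 0.900 CPM per kb (SD, n = 10). The Polycomb and Trithorax regulators that keep Hox genes off or on were all present: 29 of 29 passed the filter, with 0 called and 0 at an unadjusted p under 0.05 (0 or 1 with single mice left out, 1 without wild type replicate 2), a median log2FC of -0.02, and Dpy30, a subunit of the Trithorax-type methyltransferases, highest at 24.2 ± 2.58 CPM per kb.

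Other genes of trunk and limb position were more uneven. Of 29, 13 passed the filter, 7 were at 0 in all mice (Hand2, Barx1, Cdx2, Cdx4, Evx1, Evx2 and Mnx1, of which Evx1 and Evx2 flank the 5′ ends of Hoxa and Hoxd), and 0 were called. Tbx5, a forelimb gene, had 1599 counts, while the hindlimb genes Tbx4 and Pitx1 had 5 and 13. Meox2, a homeobox gene of mesoderm and endothelium, was the highest of the list at 6.07 ± 1.83 CPM per kb. Zic1, a marker of this depot against white fat, was 6.90, 17.6, 14.1, 7.13 and 23.3 CPM in ΔGm15551 and 9.58, 6.68, 8.94, 8.07 and 5.24 CPM in wild type. The groups overlapped (log2FC 0.84 ± 0.31, adjusted p = 0.99981, edgeR). Without adjustment, 3 of the 13 had a p under 0.05 (against 1.59% of all genes), Zic1, Lhx8 (log2FC 1.05 ± 0.33) and Tbx18 (log2FC -0.53 ± 0.21), the last 2 named after their values were seen. This count was 1 without ΔGm15551 replicate 2, without ΔGm15551 replicate 7 and without wild type replicate 7, and 1 to 4 over all mice left out singly. Tbx15, a regulator of brown fat differentiation, was 3.89, 3.62, 6.70, 3.22 and 2.83 CPM in ΔGm15551 and 2.42, 3.34, 3.79, 2.21 and 8.11 CPM in wild type, highest in the muscle-rich wild type replicate 7 and second in the muscle-rich ΔGm15551 replicate 4.

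Of 44 noncoding records inside the clusters, 18 had a count and 6 passed the filter, 4 of them in Hoxa and 2 in Hoxb, and 0 were called. The 7 records in Hoxc were all at 0. Gm15050 in Hoxa was the highest at 6.39 ± 0.924 CPM per kb, and Hotairm1, a lncRNA of the 3′ end of Hoxa, was at 4.97 ± 1.26. Hotair, which lies in the silent 5′ part of Hoxc and is known as a lncRNA of posterior tissues, was at 0 in all 10 mice.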

How the data were processed

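Paired-end poly A RNA-Seq of iBAT was used, with 5 ΔGm15551 and 5 wild type mice. Per the labels, the authors used bcl2fastq, cutadapt, Salmon and DESeq2 (versions not given in the sources used here) on GRCm38. The deposited values were estimated counts (expected counts) per gene, rounded to whole numbers. Salmon divides reads that fit several transcripts by estimate, and whether strand was used is not stated.

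Genes were kept by filterByExpr (minimum count 10, minimum total 15), scaled by TMM and tested with the quasi-likelihood test of edgeR 4.0.16 (R 4.3.3, genotype as the only term, Benjamini-Hochberg over 13732 genes, threshold 0.05). Alternatives used DESeq2 1.42.0, limma 3.58.1, other filters, lengths and subsets of mice. Gene positions and lengths came from GENCODE M21, where 98.1% of IDs were found. The main fit was also run on simulated counts with known changes, and the outcome is not given here. The lowest chi-square per degree of freedom between replicates of a group was 12.45, so no library was a copy of another of its group (pairs across genotypes were not compared).

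A Hox gene and a cofactor are counted but not reported singly here. The Hox genes, lists and tests were chosen with earlier results of these data known. Genes named are the 6 highest, the highest and last expressed gene of each cluster with its 5′ neighbour, Hox genes at an unadjusted p under 0.05, the highest gene of each list, and Zic1, Tbx15 and Hotair. Hotairm1, Tbx5, Tbx4, Pitx1, other flanking genes and the paralog pairs were named with their values known. Labels do not number litters, so p-values measure the spread between these mice.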

Additional observations from a re-analysis of the deposited data

Results flagged for a closer look

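In a search of 52 groups (the 21 Hox genes past the filter, the 4 cluster shares and Zic1, in each genotype) for a mouse set apart from the other 4 by over 0.71 of the range of its group, 5 values stood out, where chance gives about 1 in 20 groups, or 2.6. The groups hold the same mice and the shares are sums over the same genes. They are therefore not independent, and 5 beside 2.6 is a description only. Of these, 4 were in wild type replicate 7, the shallowest library and the one with most muscle RNA, which of the wild type mice was also highest in endothelial (1376 CPM, others 808.3 to 1200), Schwann, mural and immune markers and lowest in brown and white adipocyte markers. In it Hoxa5 was at 41.1 CPM (other wild type mice 32.4 to 34.9), Hoxb8 at 4.52 (2.22 to 2.83), Hoxd8 at 9.96 (5.48 to 6.27) and Hoxc4 at 14.8 (21.5 to 23.2). The fifth was Hoxd4 in ΔGm15551 replicate 1, at 5.43 CPM against 2.6 to 2.99 in the other ΔGm15551 mice, and about 49.1% of the sequence words of this gene are shared. That mouse was also rich in muscle genes. Of all 10 mice it had the highest endothelial (1480 CPM) and immune (25.97) sums and the lowest brown adipocyte sum (11340). The part of depth, of muscle RNA and of these other cell types in these values was not tested.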

How the results depend on the processing

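Under every alternative run, 0 Hox genes and 0 of all genes were called, and 168 to 869 genes (219 in the fit reported) had an unadjusted p under 0.05. Of the shares by cluster, 3 moved by more than the SD over mice: Hoxa from 43.4% to 39.9% without division by length and to 38.0% per coding length, and Hoxd from 5.27% to 6.49% without division by length. Hoxa5 stayed first and the 6 leading genes stayed the same under every length and subset, in changed order. The number of Hox genes past the filter was 20 to 22 under subsets of mice, since Hoxb9 entered when any of 6 mice was left out and Hoxd9 dropped out without the 4 muscle-rich libraries (chosen after seeing the data). Small fold changes turned sign and their cause was not tested: Hoxb2 (main value -0.04) was 0.0074 in limma-voom, -0.14 to 0.083 when single mice were left out and 0.11 without the muscle-rich libraries, and Hoxd9 (main value -0.34) was 0.11 when wild type replicates 5, 6 and 7, whose mouse numbers run higher, were left out, and -0.965 in the 6 mice with shared numbers (-0.933 with the replicate block). The 6 mice with replicate numbers in both groups gave a replicate block, but the labels do not say whether equal numbers mark paired mice. Correlations of deviations (-0.065, 0.054 and -0.395) cannot settle this. With this block Hoxc5 was 0.018 and Hoxd8 -0.096 (-0.094 without the block), and 0 Hox genes were called. The depth limits what can be said of genes with fewer than about 10 counts per mouse, such as Hoxd3, Hoxc9 and Hoxb9.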
